A study of Mus musculus with 6 samples.

Results

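The cells described here were epithelial cells from dissected pancreatic tissue of mouse embryos at embryonic day 10.5 (E10.5), and they were chosen by a rule on their RNA profiles that was meant to take pancreatic progenitors. Each barcode stands for 1 captured cell, and each UMI (unique molecular identifier) for 1 captured RNA molecule. A cell was selected on having at least 2000 genes detected and at least 3 UMIs of the epithelial genes Epcam, Cdh1, Krt8 and Krt18 together, with more of these than of the mesenchymal genes Col1a1, Col1a2, Col3a1 and Pdgfra. It also had to hold fewer than 3 UMIs of the endocrine granins Chga and Chgb, fewer than 2 of Neurog3 and fewer than 4 of Hhex, Sox17 and Itih2, which mark hepatobiliary epithelium. The rule kept 175 of 1919 barcodes, of which 820 had at least 1000 genes. The wild-type library (WT) gave 130 of these cells, from 451 barcodes with at least 1000 genes, and the mutant library (KO) gave 45, from 369. Below, cells that passed every step of the rule are called progenitor-gated cells.

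The study compared embryonic pancreas with and without an enhancer of Ptf1a, by single-cell RNA sequencing at E10.5 and by chromatin accessibility in other libraries, which were not used here. WT embryos were Ptf1a+/+. KO embryos were homozygous for the enhancer deletion, which the labels write as Ptf1aenh-delta/enh-delta. Both groups were of the C57BL/6 strain, were taken at embryonic day 10.5, and gave 1 RNA library each from tissue pooled from 5 to 9 embryos per dataset, so neither the embryo nor the sex of any cell is known and no difference has a replicate check.

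At this stage the pancreas consists of buds of foregut endoderm whose multipotent progenitors will give rise to acinar, duct and endocrine cells. Ptf1a, a basic helix-loop-helix transcription factor, acts in a complex with an E protein and with Rbpj or the related Rbpjl, and together with Pdx1, Sox9 and Nkx6-1 marks and maintains these progenitors. The ventral bud arises beside the hepatobiliary bud, later the progenitor epithelium splits into Cpa1-positive tips and Nkx6-1-positive trunks, and early endocrine cells, many of which make glucagon, already lie among the progenitors.

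The progenitor-gated WT cells held 1745062 UMIs (median 12588 per cell, range 4606 to 28036) and the KO cells 585976 (median 12931, range 4494 to 27432). The median number of genes detected was 3760 per WT cell and 4267 per KO cell. Levels are UMI sums over the cells of a library per 1000000 UMIs of those cells (CPM), and differences are log2 ratios of KO over WT after 10 CPM were added to each level, which understates the difference of low genes. Intervals are 95% and cover counting error only. Scrublet called 1 WT cell and 0 KO cells of the set doublets, and 0 barcode sequences were shared between the libraries within the set (1 among all barcodes).

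Progenitor-gated cells made up a smaller share of the KO epithelium than of the WT epithelium. Of the cells with at least 2000 genes that passed the epithelial step, 130 of 229 in WT (56.8%, 50.1 to 63.3%) and 45 of 245 in KO (18.4%, 13.7 to 23.8%) were progenitor-gated, a difference of -38.4 percentage points (-46.0 to -30.0). Granin-bearing cells and cells with 4 or more hepatobiliary UMIs were more frequent in KO, the former at 70 of 229 in WT (30.6%) and 129 of 245 in KO (52.7%) and the latter at 23 (10.0%) and 60 (24.5%). Cells with 2 or more Neurog3 UMIs that were not granin-bearing were 6 (2.62%) and 11 (4.49%). Their difference was 1.87 points, with an interval (-1.70 to 5.52) that included 0. With barcodes thinned to 5000 UMIs, as described below, they were 3 of 205 in WT (1.46%) and 12 of 224 in KO (5.36%). That difference was 3.89 points (0.33 to 7.79). Of all barcodes with at least 1000 genes, progenitor-gated cells were 28.8% in WT and 12.2% in KO (-16.6 points, -21.9 to -11.2). Since UMI thresholds depend on depth, barcodes with at least 5000 UMIs (263 in WT and 265 in KO) were also thinned to 5000 before the UMI steps. The gene floor was read before thinning. The share was then 150 of 205 epithelial cells in WT (73.2%) and 98 of 224 in KO (43.8%), a difference of -29.4 points (-37.9 to -20.2). The thresholds stayed fixed while counts fell, so fewer cells were excluded, and hepatobiliary-gated cells were then 8 in WT and 20 in KO. Without the step on Hhex, Sox17 and Itih2 the difference was -24.0 points of the epithelial cells (153 of 229 in WT and 105 of 245 in KO). Of the barcodes with at least 1000 genes it was -5.47 points (153 of 451 and 105 of 369). No interval was computed for either, so it is not shown whether the smaller of them excludes 0.

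**Figure D1:**
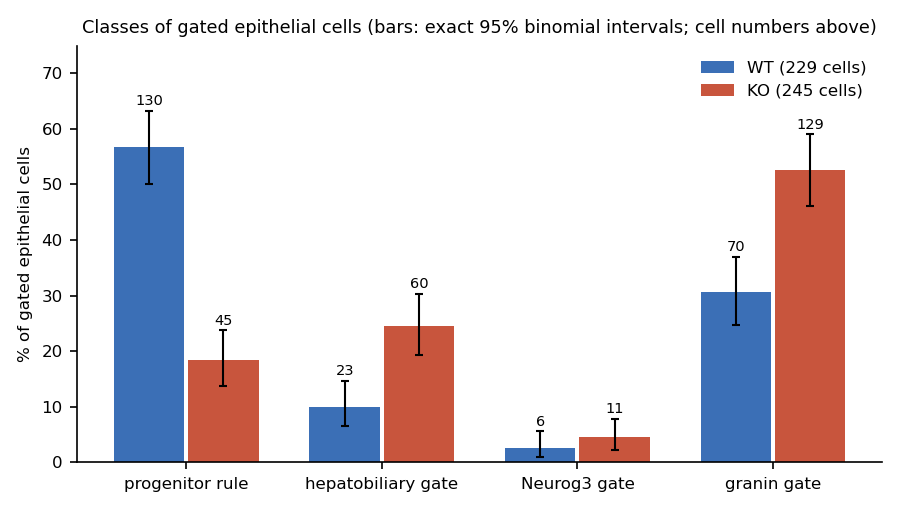
Share of gated epithelial cells (y axis, %) that fell in each class (x axis), for 229 WT cells (blue) and 245 KO cells (red). Bars start at 0, error bars are exact 95% binomial intervals and the number of cells stands above each bar. The progenitor bar is 56.8% in WT and 18.4% in KO, and the granin bar 30.6% and 52.7%.

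The edges of the rule were unevenly filled. With 3 hepatobiliary UMIs, just inside, there were 4 WT and 3 KO cells, and with 4, just outside, there were 3 WT and 10 KO cells. A Pdx1 UMI was present in 1 of those 3 KO cells inside and in 8 of the 10 outside. Cells less than 500 genes above the floor of 2000 numbered 16 in WT and 2 in KO, and otherwise passing cells up to 500 genes under it numbered 40 and 7. With 2 granin UMIs, just inside, there were 4 WT and 4 KO cells, and with 3 there were 3 and 2. With 1 Neurog3 UMI there were 14 WT and 7 KO cells, and with 2, outside, 1 and 0. With 3 epithelial UMIs there was 1 WT cell, and 3 WT cells had 2.

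The progenitor label was checked against 7 markers, Epcam, Pdx1, Nkx6-1, Cpa1, Nepn, Spon1 and Spp1, of which Epcam was part of the rule. The WT cells carried the other 6 widely. Pdx1, the homeobox factor that specifies pancreas, had a UMI in 104 of 130 WT cells (80%), Nkx6-1, a homeobox factor of progenitors and beta cells, in 68, Cpa1, which encodes the digestive enzyme carboxypeptidase A1, in 89, Nepn, which encodes the secreted leucine-rich protein nephrocan, in 114, Spon1, which encodes the matrix protein spondin 1, in 84, and Spp1, which encodes osteopontin, in 64. Fewer of the KO cells held most of these markers. Pdx1 had a UMI in 19 of 45 KO cells (42.2%), Nkx6-1 in 8, Cpa1 in 1, Nepn in 29, Spon1 in 14 and Spp1 in 21. At least 3 of the 6 markers were present in 110 WT cells (84.6%, 77.2 to 90.3%) and in 18 KO cells (40%, 25.7 to 55.7%). With every cell thinned to 5000 UMIs, which left out 1 WT and 3 KO cells, the shares were 62.0% and 16.7%. Of the 7 markers 5 were themselves at least 2-fold lower in KO. Their number therefore cannot tell cells of another kind from progenitors with less of these genes. Sox9, which is not among the 7, had a UMI in 79.8% of the thinned WT cells and 76.2% of the thinned KO cells. It was also common in the other classes. Its thinned shares in WT and KO were 53.6% and 64.1% of granin-gated cells and 56.5% and 56.7% of hepatobiliary-gated cells. In mesenchymal-gated cells they were 60% and 58.8%. Of 18 progenitor factors measured, 4 were at least 2-fold lower in KO. Among granin-gated cells of the same libraries, at median depths of 13608 and 11612 UMIs, thinned shares with a Pdx1 UMI were 24.6% in WT and 23.4% in KO, against 55.8% and 31.0% of the progenitor-gated cells. The KO cells are therefore described by the rule that took them and not as a pure progenitor population.

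Hormone genes and mesenchymal genes also divided the KO set. Of the 45 KO cells, 14 (31.1%, 18.2 to 46.7%) held 10 or more UMIs of 9 hormone genes (Gcg, Ghrl, Pyy, Iapp, Cck, Ins1, Ins2, Sst and Ppy), against 5 of 130 WT cells (3.85%). The rule had admitted them because it reads granins and not hormones. A further overlap was with mesenchyme, since 16 KO cells (35.6%) and 12 WT cells (9.23%) held 3 or more UMIs of the 4 mesenchymal genes of the rule. Either feature was present in 25 KO cells (55.6%) and 16 WT cells (12.3%). Values for the cells without these features, and for the 104 WT and 19 KO cells with a Pdx1 UMI (median 13342 and 15999 UMIs), are given with several of the results that follow.

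Against the remaining barcodes with at least 1000 genes, which is a description because the rule chose the cells on these same profiles, the genes leading in both libraries were Nepn, Mecom, Nkx6-2, Spp1, Bmp7, Ppp2r2b and Adamts1. Nepn was at 1333 CPM in WT progenitor-gated cells and 195.2 in the other WT barcodes, and at 494.9 and 151.2 in KO. Nkx6-2, a homeobox relative of Nkx6-1, was at 164.5 and 58.4 CPM in WT and at 288.4 and 103.6 in KO. Bmp7, a secreted BMP ligand, was at 84.2 and 24.6 CPM in WT and at 76.8 and 29.8 in KO. The other leading genes of the first 15 were Tcf7l2, Mgst1, Wnt16, Plut, Col2a1, Rbms3, Hpgd and Sirpa. Taken library by library, the top 15 shared 2 genes, Nepn and Mecom. The WT list ran Nepn, Chst2, Spon1, Rhov and Ptf1a, and the KO list Cldn5, Nepn, Mecom, Dqx1 and Nkx6-2. Cldn5, an endothelial tight-junction gene, came from 18 UMIs in 9 KO cells. Nkx6-1 was lower in KO progenitor-gated cells than in the other KO barcodes, at 17.1 against 33.3 CPM.

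**Figure D2:**
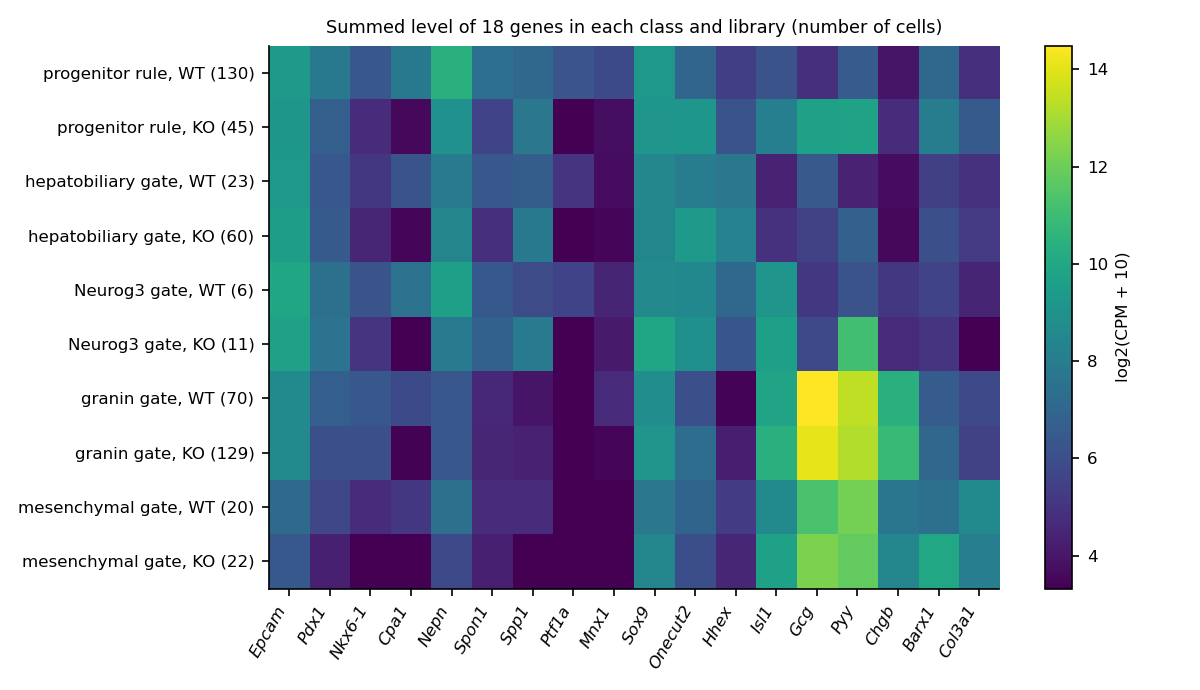
Summed levels, log2(CPM + 10) as colour, of 18 genes (columns) in 5 classes of cells in each library (rows, with the number of cells). The Ptf1a column is above its darkest value only in WT rows of the progenitor, hepatobiliary and Neurog3 classes, and Gcg and Pyy are brightest in the granin rows.

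Ptf1a itself, which the deleted enhancer serves, was present in the WT cells and was not detected in the KO cells. It had 115 UMIs in 68 of 130 WT cells (52.3%), or 65.9 CPM (54.4 to 79.1), with a median of 1 and at most 5 UMIs per cell. It had 0 UMIs in the 45 KO cells, and a count of 0 allows up to 5.12 CPM, at 3 counts over the group, and a share of up to 6.67% of cells with a UMI. Against that floor KO was 12.9-fold lower, or 10.6-fold from the low end of the WT interval. After thinning to 5000 UMIs, Ptf1a had a UMI in 33 of 129 WT cells (25.6%) and in 0 of 42 KO cells, and in 0 of 69 WT and 0 of 128 KO granin-gated cells. In the WT cells with 4 or more hepatobiliary UMIs it was in 4 of 23 before thinning, and in the KO cells of that class in 0 of 60. Within the WT set, 61 of the 68 Ptf1a-bearing cells also had a Pdx1 UMI, 66 a Sox9 UMI, 53 a Cpa1 UMI and 45 an Nkx6-1 UMI. The group of Ptf1a and its partners (Ptf1a, Rbpj, Rbpjl, Tcf3, Tcf4 and Tcf12) had 5 of 6 genes with at least 50 UMIs, and the others were within 2-fold. Rbpj, the Notch effector, was at 65.3 CPM in WT and 85.3 in KO, and Tcf3, which encodes E proteins, at 137.0 and 187.7. Rbpjl, the acinar form of the partner, was under that minimum with 37 UMIs in 29 WT cells and 0 in KO. Of 10 genes listed around Ptf1a, 5 were measured and 0 passed 2-fold in either direction, between -0.43 for Etl4 and 0.39 for Commd3.

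Over the 6153 genes with at least 50 UMIs in both sets together, 109 (1.77%) were at least 2-fold higher in KO and 59 (0.959%) at least 2-fold lower, and the median log2 ratio was 0.15. The interval of the ratio excluded equality for each of these genes. The gene lists described below were chosen with earlier results of these data known. Their counts describe the listed genes and stand beside 1.77% higher and 0.959% lower over all genes. Scaling by the median of ratios in place of the total changed the levels by a factor of 0.18 on the log2 scale, moved the median of all genes to -0.00027 and gave 61 higher (39.1% of the calls, against 64.9%) and 95 lower. On that scale Paqr9, Runx1t1, Igfbpl1, Fn1, Foxf1, Pdgfra, Cdkn1a, Nnat and Ndn, which are counted as higher in the gene groups described further on, were within 2-fold. The 10 lowest genes were Cpa1, Chst2, Ptf1a, P2rx1, Rhov, Matn4, Gc, Kirrel2, Cda and Mnx1. Among the 10 highest were Ghrl, Gcg, Gm10260, Pyy, Iapp, Cck, Slc38a5, Xist and Onecut2. Each of the 10 lowest stayed below 0 under the 16 alternatives tried for it, while among the 10 highest Slc38a5 did not keep its sign when the cells without a Pdx1 UMI were left out, and Ghrl, Iapp and Cck then had under 50 UMIs.

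**Figure D3:**
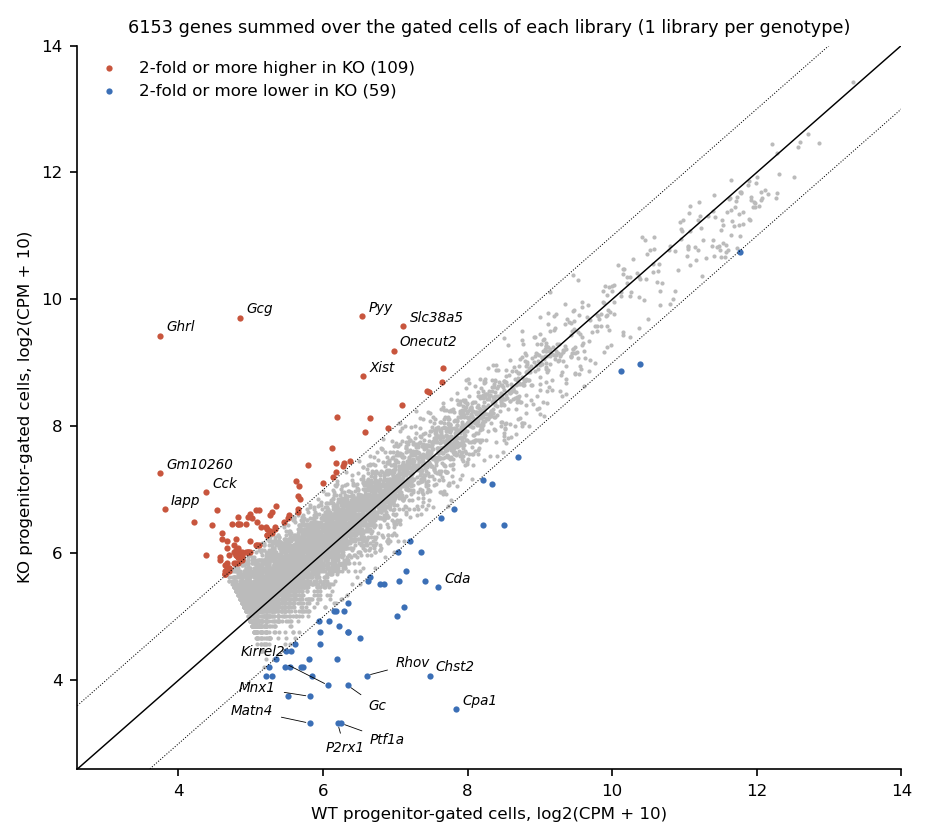
Each point is 1 of 6153 genes, with its summed level in the 130 WT progenitor-gated cells (x axis) and in the 45 KO cells (y axis), both as log2(CPM + 10). The solid line marks equal levels and the dotted lines 2-fold, and genes among the 10 lowest and 10 highest are named. Red points (109) are higher and blue points (59) lower in KO.

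The promoters of the 4 lowest genes are shown because these genes were the farthest down in KO. Each is the window from 250 bases before to 50 bases after the RefSeq start on GRCm38.p6, written 5′ to 3′ on the gene's strand, with capitals for the E-box CANNTG and for TGGGAA or its complement TTCCCA, which are the E-box and TC-box letters that the Ptf1a complex is known to bind. Cpa1 lay at chr6:30638968-30639267 (plus strand), Chst2 at chr9:95407221-95407520 (minus strand), Ptf1a at chr2:19445413-19445712 (plus strand) and P2rx1 at chr11:72998895-72999194 (plus strand).
Cpa1: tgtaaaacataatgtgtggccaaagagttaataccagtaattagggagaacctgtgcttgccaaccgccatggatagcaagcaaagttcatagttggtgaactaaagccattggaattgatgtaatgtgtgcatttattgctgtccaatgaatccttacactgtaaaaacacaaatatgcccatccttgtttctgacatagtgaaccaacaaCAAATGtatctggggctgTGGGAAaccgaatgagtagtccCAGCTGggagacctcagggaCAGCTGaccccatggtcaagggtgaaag
Chst2: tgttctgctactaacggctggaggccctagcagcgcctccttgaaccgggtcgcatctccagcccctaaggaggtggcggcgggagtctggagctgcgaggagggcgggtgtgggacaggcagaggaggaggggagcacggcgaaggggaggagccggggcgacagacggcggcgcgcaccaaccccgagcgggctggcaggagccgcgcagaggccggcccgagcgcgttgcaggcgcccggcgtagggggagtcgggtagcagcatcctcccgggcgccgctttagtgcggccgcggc
Ptf1a: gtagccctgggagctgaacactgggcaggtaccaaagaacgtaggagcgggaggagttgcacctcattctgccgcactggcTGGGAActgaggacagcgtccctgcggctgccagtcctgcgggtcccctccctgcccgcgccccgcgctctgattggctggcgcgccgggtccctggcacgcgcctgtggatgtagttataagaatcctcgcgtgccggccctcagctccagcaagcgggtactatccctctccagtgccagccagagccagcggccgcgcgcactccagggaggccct
P2rx1: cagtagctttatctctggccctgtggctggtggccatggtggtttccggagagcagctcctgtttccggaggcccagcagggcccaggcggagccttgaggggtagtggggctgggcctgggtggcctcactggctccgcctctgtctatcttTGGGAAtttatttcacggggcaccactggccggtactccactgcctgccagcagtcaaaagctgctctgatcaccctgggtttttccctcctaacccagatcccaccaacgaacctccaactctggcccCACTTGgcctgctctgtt
The Cpa1 window held 3 E-boxes and 1 TGGGAA, the Ptf1a window 0 and 1, the P2rx1 window 1 and 1, and the Chst2 window 0 and 0. Searched on both strands, E-boxes were in 72.3% and TGGGAA in 25.6% of all 32851 windows of this length, and both in 18.96%. Among the 10 lowest genes they were in 7, 5 and 4 of 10 windows, and among the 4912 measured genes with a window in 59.2%, 22.2% and 13.5%. These matches describe the letters in the windows and are not sites shown to be bound.

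Cpa1 had 382 UMIs in 89 WT cells (218.9 CPM) and 1 UMI in 1 KO cell (1.71 CPM), a KO over WT ratio between 0.000197 and 0.0437 and a log2 ratio of -4.29. Chst2, which encodes a sulfotransferase that modifies sugar chains, had 293 UMIs in 93 WT cells (167.9 CPM) and 4 UMIs in 4 KO cells (6.83 CPM). P2rx1, which encodes an ATP-gated ion channel, had 111 UMIs in 63 WT cells and 0 in KO. Against the floor of 3 counts it was 12.4-fold lower, or 10.2-fold from the low end of the WT interval. WT and KO cells overlapped for each gene only at low counts, since 41 of 130 WT cells had no Cpa1 UMI. Rhov had 152 UMIs in WT and 4 in KO. Matn4, which encodes the matrix protein matrilin 4, had 81 and 0, which is 9.07-fold lower against that floor, or 7.2-fold from the low end. Gc, which encodes the vitamin D-binding protein, had 124 and 3 (ratio interval 0.0147 to 0.216). Kirrel2, which encodes a nephrin-like adhesion protein, had 100 UMIs in WT and 3 in KO, all 3 in 1 cell. Cda, which encodes cytidine deaminase, was at 182.8 CPM in WT and 34.1 in KO. The motor neuron and pancreas homeobox gene Mnx1 had 81 UMIs in 55 WT cells and 2 UMIs in 2 KO cells. After thinning, Chst2 had a UMI in 48.8% of WT and 4.76% of KO cells, Rhov in 37.98% and 2.38%, and Mnx1 in 21.7% and 0%. Some of these genes were less frequent in KO granin-gated cells too. Thinned shares there were 10.1% in WT and 0.78% in KO for Cpa1, and 10.1% and 1.56% for Mnx1. They were 5.80% and 0.78% for Chst2, and 1.45% and 1.56% for Rhov.

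Of 22 transcription factors of pancreatic progenitors, 18 were measured, of which 4 were at least 2-fold lower in KO (Mnx1, Nkx2-2, Nkx6-1 and Pdx1) and 0 higher, with a median log2 ratio of -0.11 beside 0.15 for all genes. Pdx1 was at 215.5 CPM in WT and 93.9 in KO, with a median of 2 UMIs per WT cell and 0 per KO cell. Nkx6-1 was at 71.1 CPM in WT and 17.1 in KO, and reached 6 UMIs in a WT cell and 2 in a KO cell. Nkx2-2, a homeobox factor of progenitors and endocrine cells, was likewise at 71.1 and 17.1 CPM. In granin-gated cells of the same libraries the thinned share with an Nkx2-2 UMI was 31.9% in WT and 32.8% in KO (difference 0.93 points, -13.0 to 13.9), against 27.9% and 7.14% in progenitor-gated cells (-20.8 points, -30.3 to -6.98). Whether these classes differed in this respect was not tested.

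The other factors of the list lay within 2-fold. Sox9, which marks and maintains progenitors, was at 614.9 CPM in WT and 554.6 in KO, with a UMI in 119 of 130 and 39 of 45 cells, and its ratio interval (0.794 to 1.02) included equality. Foxa2, a pioneer factor of endoderm, was at 104.9 and 138.2 CPM, and Gata6 at 68.2 and 66.6. Prox1, a homeobox factor of early pancreas and liver, was at 166.2 and 104.1 CPM, Hes1, a Notch target, at 154.1 and 88.7, and Nr5a2, a nuclear receptor later needed in acinar cells, at 74.5 and 35.8. Nr5a2 passed 2-fold when the scaling was the median of ratios. Sox11 was the highest of the list, at 555.9 CPM in WT and 1096 in KO.

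**Figure D4:**
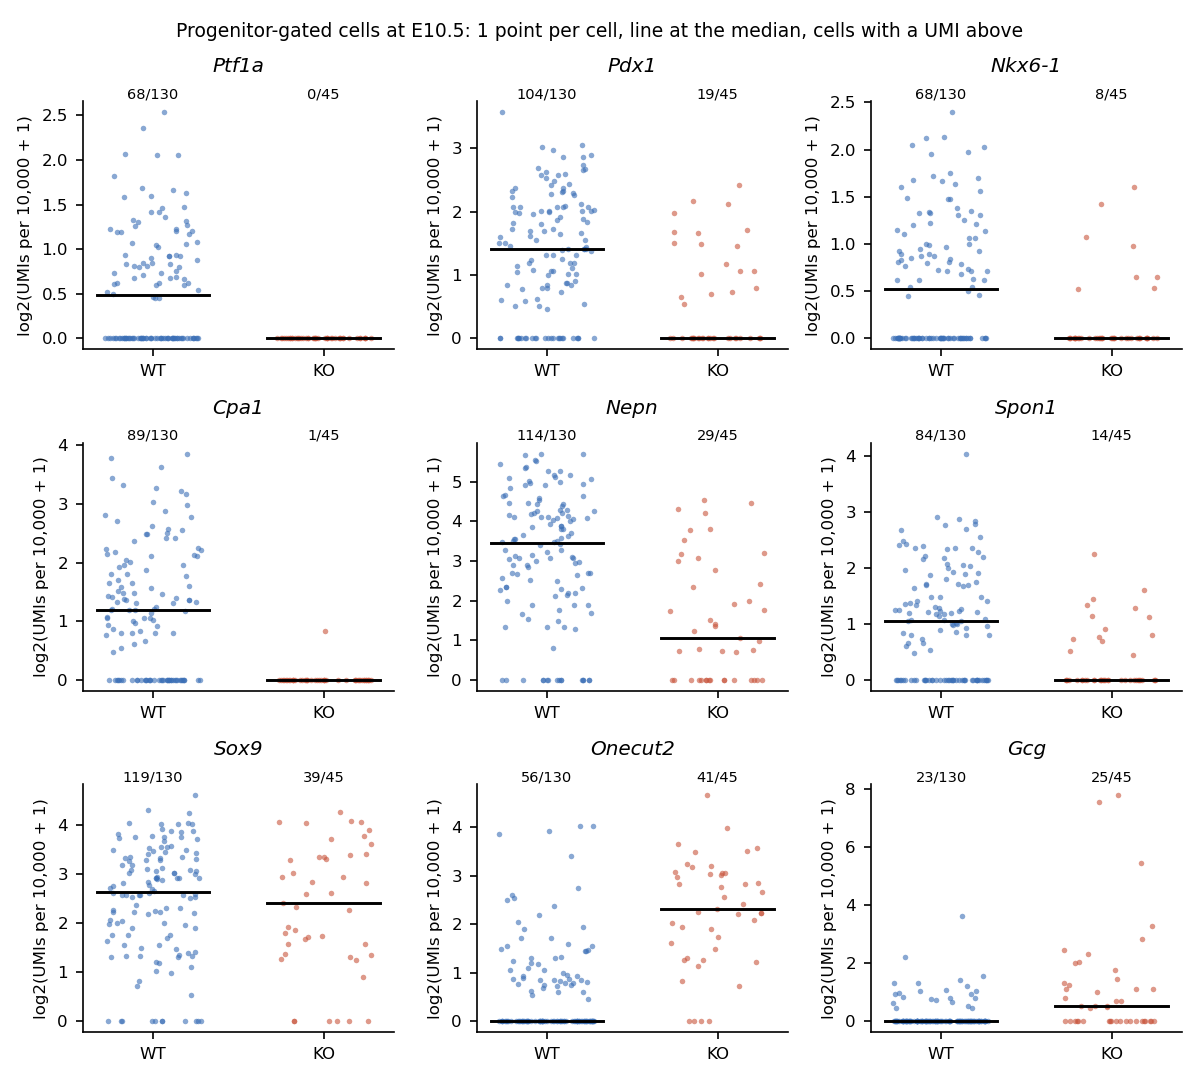
Level of 9 genes in each progenitor-gated cell, as log2 of UMIs per 10000 plus 1 (y axis), for 130 WT cells (blue) and 45 KO cells (red). Points are cells, black lines are medians over cells and the fraction over each column gives cells with a UMI. Ptf1a is at 0 in all 45 KO cells, Sox9 overlaps between the libraries, Onecut2 is higher in most KO cells, and 3 KO cells stand far above the rest for Gcg.

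Many secreted and enzyme products of progenitors were lower in KO. Of 15 such effector genes 13 were measured, of which 7 were at least 2-fold lower (Cpa1, Chst2, Rhov, Spon1, Vtn, Clps and Nepn) and 2 higher (Igfbpl1 and Cdh6), with a median of -1.41. Nepn had 2327 UMIs in WT and 290 in KO, or 1333 and 494.9 CPM, with a median of 12 UMIs per WT cell and 1 per KO cell and a highest value of 85 and 58. After thinning Nepn had a UMI in 83.7% of WT and 38.1% of KO progenitor-gated cells, and in 17.4% and 14.1% of granin-gated cells. In hepatobiliary-gated cells it was in 26.1% of WT and 31.7% of KO cells. Just outside the rule, with 4 hepatobiliary UMIs, Nepn was at 523.7 CPM in 3 WT cells and 1076 in 10 KO cells. Over the whole KO hepatobiliary-gated class, thinned counts gave 98 Nepn UMIs in 60 cells, against 63 in the 42 thinned KO progenitor-gated cells. How far its KO level in the set depends on the hepatobiliary step was not tested. Spon1 was at 160.5 CPM in WT and 37.5 in KO. Vtn, which encodes vitronectin, was at 285.4 and 76.8 CPM, and Clps, which encodes the lipase cofactor colipase, at 122.1 and 37.5. Spp1 was within 2-fold, at 126.1 CPM in WT and 208.2 in KO, with a UMI in 49.2% and 46.7% of cells. Of 27 genes of tip and acinar cells only 6 had 50 UMIs, and of these Cpa1 and Clps were lower and 0 higher. The markers Cpa1 and Clps stand in both of these lists. Of 22 trunk and duct genes 15 were measured, of which Nkx6-1 was lower and 0 higher (median 0.12, which became -0.01 with the median of ratios).

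Several hepatobiliary genes were higher in KO. Of 24 genes 13 were measured, 5 were at least 2-fold higher in KO (Paqr9, Afp, Ttr, Apom and Onecut2) and 0 lower, with a median of 0.92. Onecut2, a transcription factor of liver, biliary tract and endocrine precursors, had 202 UMIs in 56 of 130 WT cells (43.1%) and 337 UMIs in 41 of 45 KO cells (91.1%), or 115.8 and 575.1 CPM. The median was 0 UMIs per WT cell and 4 per KO cell, and the highest 37 and 34, so the ranges overlapped. After thinning the shares were 27.9% and 73.8% (difference 45.9 points, 28.9 to 58.9), in granin-gated cells 20.3% and 36.7%, and in hepatobiliary-gated cells 56.5% and 66.7%. Afp, which encodes the fetal serum protein alpha-fetoprotein, was at 126.1 and 312.3 CPM, Ttr, which encodes transthyretin, at 192.0 and 472.7, and Apom, an apolipoprotein gene, at 21.8 and 88.7. Paqr9 was within 2-fold under the median of ratios. In the cells with a Pdx1 UMI, 11 genes of the list were measured and the 3 higher ones were Rbp4, Hhex and Onecut2. Afp (123.0 and 230.8 CPM), Ttr (176.8 and 360.9) and Apom (24.9 and 55.3) were within 2-fold there, and Paqr9, with 24 and 12 UMIs, was under the minimum. In the cells with neither hormone nor mesenchymal UMIs at the numbers above, 10 genes of the list were measured. Of these 5 were higher (Rbp4, Krt7, Hhex, Apom and Onecut2) and 0 lower, with a median of 0.92. Over all 5008 genes measured there 1.997% were higher. Afp (124.5 and 174.2 CPM) and Ttr (198.8 and 359.5) were within 2-fold there, while Apom was at 21.4 and 77.8 CPM. Hhex, whose UMIs the rule limits, was at 32.1 CPM in WT and 61.4 in KO. Of the 24 list genes 23 had a UMI in the WT cells and 22 in the KO cells (Nr1h4 at 0 in both), and the summed level ran from 128.4 to 9049 CPM over WT cells and from 669.0 to 8740 over KO cells. The part of residual hepatobiliary cells in these values was not tested.

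Endocrine genes made up much of the top of the list, and most UMIs of several hormone genes came from few KO cells. Other genes were spread more widely, with Isl1 and Runx1t1 in 23 KO cells each and Cpe in 22. The top KO cell held 16.8%, 11.4% and 14.3% of their KO UMIs. Of 37 genes 12 were measured, 10 were at least 2-fold higher in KO (among them Runx1t1, Cpe, Pax6, Isl1, Cck, Iapp, Pyy, Gcg and Ghrl) and 1 lower (Nkx2-2), with a median of 2.12. Gcg, which encodes glucagon, had 33 UMIs in 23 WT cells and 486 in 25 KO cells, and 64.4% of the KO UMIs lay in 1 cell. Ghrl, which encodes ghrelin, had 6 UMIs in WT and 398 in 6 KO cells. Pyy, which encodes peptide YY, had 145 UMIs in 37 WT cells and 494 in 30 KO cells. The 14 KO cells with 10 or more hormone UMIs held 450 of the 486 Gcg, 397 of the 398 Ghrl and 450 of the 494 Pyy UMIs. They held 4 cells with a Pdx1 UMI and 131 of the 161 Isl1 UMIs, Isl1 being a LIM-homeobox factor of endocrine cells. The KO cells had UMIs of 34 of the 37 list genes and the WT cells of 35 (Neurod2 and Ins2 at 0 in both), at summed levels of 410.6 to 49644 CPM per KO cell and 0 to 7526 per WT cell. After thinning, a Gcg UMI was in 7.75% of 129 WT and 40.5% of 42 KO progenitor-gated cells, in 17.4% of 23 WT and 26.7% of 60 KO hepatobiliary-gated cells, and in 46.7% of 15 WT and 41.2% of 17 KO mesenchymal-gated cells. The part of endocrine cells in these values was not tested beyond the counts without them.

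Without the cells of 10 or more hormone UMIs, 7 endocrine genes were measured and 3 were higher (Runx1t1, Pyy and Gcg), beside 1.825% of all 5699 genes measured there. Without the mesenchyme-bearing cells as well, 4 were measured and Pyy alone was higher, beside 1.997% of 5008 genes. Nkx2-2 was lower in both. Leaving out cells by their UMIs of Gcg, Ghrl, Pyy, Iapp and Cck builds a fall of these genes in. In the cells with a Pdx1 UMI, Isl1 was at 47.1 CPM in WT and 19.5 in KO, within 2-fold, and Slc38a5, which encodes a glutamine transporter, was lower in KO, with 134 UMIs in WT and 8 in KO (90.1 and 26.0 CPM). Ghrl (6 and 1 UMIs), Iapp (6 and 0), Cck (11 and 0), Pax6 (13 and 0) and Runx1t1 (44 and 5) were under the minimum there. Pyy stayed higher in that comparison, at 90.1 and 425.9 CPM, the latter from 131 UMIs in 13 KO cells. The KO cells with a Pdx1 UMI included 4 with 10 or more hormone UMIs. All 31 KO cells under that number held 44 Pyy UMIs, so most of the 131 lay in those 4 cells.

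The genes lowest in KO over the whole set were also low in KO when only cells with a Pdx1 UMI were summed. In the 104 WT and 19 KO cells with a Pdx1 UMI, Ptf1a had 108 and 0 UMIs, Cpa1 348 and 0, P2rx1 101 and 0, Chst2 267 and 2, and Clps 177 and 1. Nkx6-1 was at 78.7 and 29.3 CPM there, Spon1 at 169.4 and 32.5, Vtn at 307.9 and 133.3, and Nkx2-2 at 72.6 and 13.0. Nepn was at 1439 and 731.5 CPM, a log2 ratio of -0.97 and so just within 2-fold, and Sox9 at 648.0 and 627.5. Of 17 progenitor factors measured in these cells 3 were lower (Nkx2-2, Mnx1 and Nkx6-1) and 2 higher, Foxa3 and Nkx6-2, the latter at 171.4 CPM in WT and 487.7 in KO. Of 12 effectors 6 were lower and 2 higher. Onecut2 was at 126.4 and 809.5 CPM, in 49 of 104 and 18 of 19 cells. Over 5132 genes measured there, 102 were higher (33 of the 109 among them) and 79 lower (45 of the 59). The 114 WT and 20 KO cells with neither hormone nor mesenchymal UMIs at those numbers gave Ptf1a 98 and 0 UMIs, Cpa1 343 and 0, and Onecut2 127.2 and 793.2 CPM. Pdx1 itself was at 224.9 and 155.7 CPM in them, within 2-fold.

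**Figure D5:**
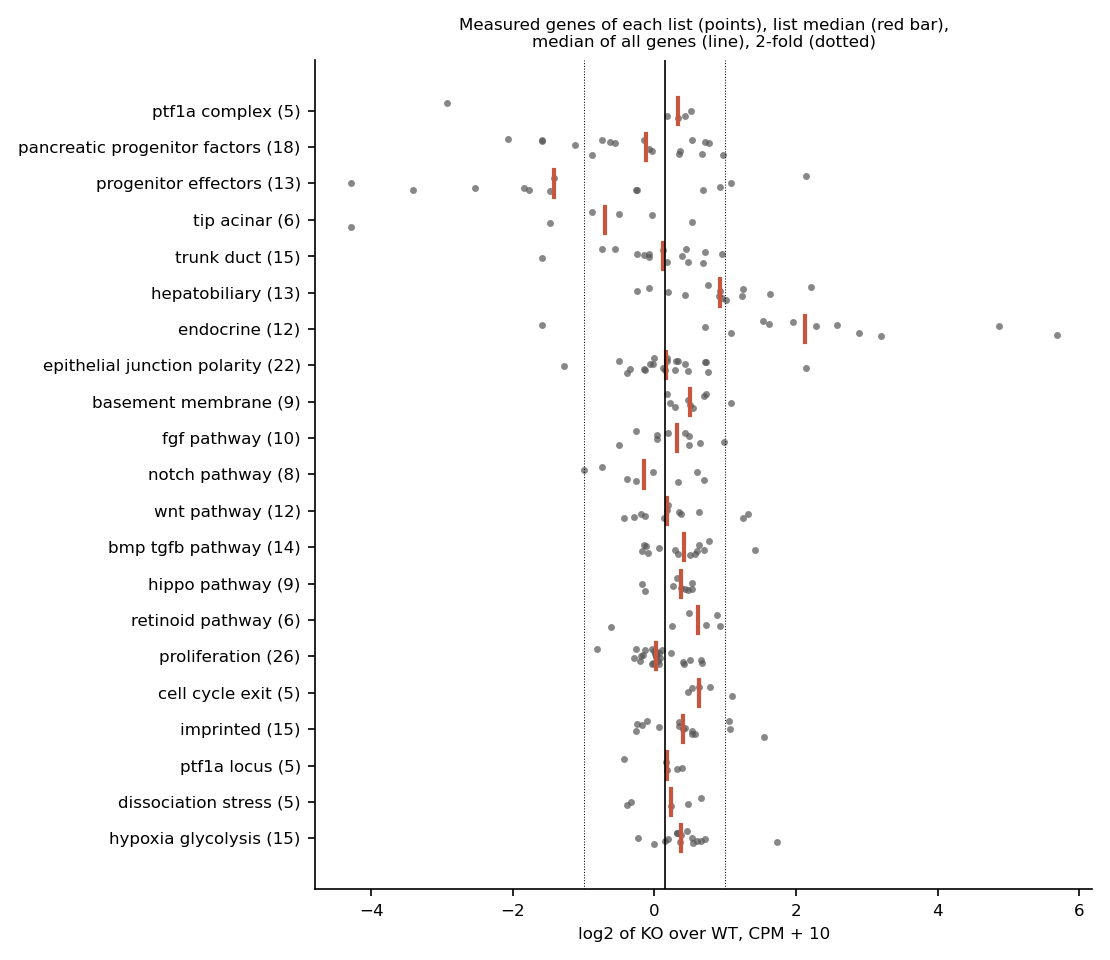
Log2 ratio of KO over WT (x axis) of each measured gene (points) in 21 lists (rows, number of measured genes in brackets), with the list median as a red bar. The solid line is the median of all genes (0.15) and the dotted lines mark 2-fold. The effector median lies at -1.41, the hepatobiliary median at 0.92 and the endocrine median at 2.12.

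Of 30 genes for epithelial junctions, keratins and polarity 22 were measured, of which Cdh1 was lower and Cdh6 higher. Epcam, a rule gene that encodes an epithelial adhesion molecule, was at 649.3 CPM in WT and 587.1 in KO. Cdh1, which encodes E-cadherin and is also a rule gene, was at 100.9 and 35.8 CPM, with a UMI in 82 of 130 and 16 of 45 cells. Cdh6, which encodes a cadherin of developing epithelia, was at 13.2 and 92.2 CPM, in 12 and 25 cells. The keratin genes Krt8 and Krt18 were at 420.6 and 365.6 CPM in WT and at 715.0 and 610.9 in KO. In the cells with a Pdx1 UMI 21 were measured, Cdh1 was lower (111.6 and 26.0 CPM) and 3 were higher, Cdh6 (14.1 and 120.3), Krt8 (408.7 and 933.0) and Krt18 (352.3 and 864.8). Without the cells of 3 or more mesenchymal UMIs 20 were measured and 0 passed in either direction, with Cdh1 at 101.0 and 49.2 CPM and Cdh6 under the minimum (17 and 30 UMIs). Of 16 basement membrane genes 9 were measured and Fn1, which encodes fibronectin, was the 1 past 2-fold, at 167.3 and 363.5 CPM, though not under the median of ratios.

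Mesenchymal genes were higher in KO over the whole set. Of 19 genes 8 were measured and 4 were higher (Foxf1, Pdgfra, Col3a1 and Nkx2-3). Of the 19, 16 had a UMI in each library (Nkx3-2 and Meox2 at 0 in both), at 0 to 2444 CPM summed per WT cell and 0 to 3585 per KO cell. Without the cells of 3 or more mesenchymal rule UMIs, 2 were measured and 0 were past 2-fold, and Col3a1 had a log2 ratio of -0.38 against 1.64 before, a change that leaving out those cells builds in. Of the endothelial list 8 of 8 genes had a UMI in each library, at a summed 18.3 CPM in WT and 105.8 in KO, with at most 1124 and 1450 CPM in a cell and a median of 0. Blood, neural and mesothelial genes summed to at most 39.5 CPM in WT and 93.9 in KO, and gut and stomach genes to 37.8 and 70.0, with 0 genes of these lists reaching 50 UMIs. Blood genes at 0 in both were Ptprc and Csf1r and mesothelial genes Msln and Krt14, and the gut genes at 0 in both included Cdx1, Osr2, Cdh17 and Tff2. The part of each of these cell types in the genes named above was not tested.

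Signalling lists held few genes past 2-fold. Of 10 measured FGF pathway genes of 20, 0 passed in either direction, and in the cells with a Pdx1 UMI Dusp6, which encodes a phosphatase that limits ERK signalling, was higher among 8 measured. Etv5, a transcription factor induced by FGF, was at 81.4 CPM in WT and 54.6 in KO and was the lowest of them. Of 8 measured Notch genes of 25, 0 passed, and the receptor gene Notch1, at 81.4 and 35.8 CPM, was just within 2-fold (log2 ratio -0.995) and passed under the median of ratios and in the cells with a Pdx1 UMI (87.4 and 35.8 CPM). The ligand gene Jag1 had 40 UMIs in WT and 3 in KO, under the minimum of 50. Of 12 measured Wnt genes of 30, the secreted inhibitors Sfrp1 (62.5 and 162.1 CPM) and Sfrp5 (28.7 and 87.0 CPM) were higher and 0 lower. In the cells with a Pdx1 UMI Sfrp1 was at 58.5 and 126.8 CPM, just within 2-fold, and without the cells of 3 or more mesenchymal UMIs at 51.5 and 66.5, while Sfrp5 passed 2-fold in both (log2 ratios 1.78 and 1.29). Of 14 measured BMP and TGF-beta genes of 25, Tgfb2, which encodes a TGF-beta ligand, was higher (15.5 and 58.0 CPM), from 27 and 34 UMIs, and had 24 and 7 UMIs in the cells with a Pdx1 UMI and 17 and 7 without the mesenchyme-bearing cells, under the minimum. Of 9 Hippo and 6 retinoid genes measured, 0 passed, and Rbp4, which encodes the retinol carrier, was the highest of the retinoid list at 695.1 and 1324 CPM. In the cells with a Pdx1 UMI, of which 19 were KO, 3 of 5 measured retinoid genes were higher, with a median of 1.03. They were Rxrb, Rbp4 (749.6 and 1590 CPM) and Rara, beside 1.99% of all 5132 genes measured there. Without hormone- and mesenchyme-bearing cells Rbp4 and Rara were higher. Rbp4 also stands in the hepatobiliary list. Rxrb and Rara encode nuclear receptors of retinoids.

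Proliferation genes did not pass 2-fold in either direction, with 26 of 27 measured and a median of 0.03 (-0.14 under the median of ratios). Mki67, which encodes the Ki-67 antigen, was at 229.8 CPM in WT and 235.5 in KO, and after thinning had a UMI in 51.9% and 61.9% of cells (difference 9.97 points, -7.32 to 25.6). The ends of the list were the D-type cyclin genes Ccnd1, at 810.9 and 459.1 CPM, and Ccnd2, at 545.5 and 872.0. Histone genes, which were picked out after their values were seen, lay lower. All 16 measured genes with Hist symbols had log2 ratios below 0, with a median of -0.97, and 8 were at least 2-fold lower, among them Hist1h2ae with 617 UMIs in WT and 45 in KO. The near-identical copies of these genes can share reads. A lower Hist1h2ae share was also present outside the set, with thinned shares of 26.1% in WT and 11.7% in KO granin-gated cells and of 65.2% and 28.3% in hepatobiliary-gated cells, against 56.6% and 23.8% in progenitor-gated cells. Of 5 measured genes of cell cycle exit, Cdkn1a, which encodes the CDK inhibitor p21, was higher (62.5 and 145.1 CPM), but at -0.08 without the cells of 10 or more hormone UMIs.

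Of 15 measured imprinted genes 3 were higher (Nnat, Ndn and Peg10), and Peg10 alone under the median of ratios. Peg10 was at 59.6 and 192.8 CPM, but at 57.1 and 84.5 in the cells with a Pdx1 UMI and at 44.2 and 66.7 without hormone- and mesenchyme-bearing cells, within 2-fold in both. Nnat was likewise within 2-fold without those cells, at 186.7 and 259.5 CPM. Dlk1, the lowest of them, was at 1030 CPM in WT and 858.4 in KO. Of 15 glycolysis and hypoxia genes Slc2a3, a glucose transporter gene, was higher, at 16.6 and 78.5 CPM, and in the cells with a Pdx1 UMI at 18.2 and 117.0. Of 5 measured genes of the dissociation response 0 passed. Gm10260, a predicted gene whose reads may come from near-identical copies and whose value is therefore uncertain, had 6 UMIs in WT and 84 in 30 KO cells. Xist, the RNA of the inactive X chromosome, which lies across from Tsix on the opposite strand, had a UMI in 22 of 130 WT and 31 of 45 KO cells, at 84.2 and 433.5 CPM. The Y-linked Ddx3y was in 38 WT and 7 KO cells. The pools thus differed in the share of cells with Xist, and the part of sex in the differences above was not tested.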

How the data were processed

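The authors deposited UMI counts per gene symbol and barcode, not normalized per the file headers, from 10x Genomics 3′ v3 libraries per the labels' protocols. The submitters' processing notes name mm10. The aligner, annotation and cell filter were not given in the sources used here. A deposited list of barcodes names the library of each cell by its prefix (a text label, with no score or other unit), and 0 columns belonged to other samples. The chromatin libraries were not used here.

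The gated cells and the 23 gene lists were chosen with earlier results of these data known. UMIs were summed per library over the gated cells and scaled to CPM (Python 3.11.15, numpy 2.4.6, scipy 1.17.1). Genes with at least 50 UMIs over both libraries were compared, and a log2 ratio of 1 or more in either direction was called 2-fold. With 1 library per genotype no test was possible and no p-value is given. Sums carry exact Poisson, shares exact Clopper-Pearson, differences of shares Newcombe and count ratios exact conditional intervals, at 95%. A group with 0 UMIs was set to a floor of 3 UMIs, over the whole group, for a bound on the fold. Of 31028 symbols 0 were mitochondrial, so no mitochondrial filter was applied. Doublets were called with scrublet in scanpy 1.11.5 and kept. Thinning drew 5000 UMIs without replacement from each cell that held at least as many, and left out the others. The calculations were tested on simulated data.

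The genes named by rule were the genes of the gate, the 7 markers, Ptf1a, both ends of each list, list genes past 2-fold, the 10 lowest and 10 highest genes and the 15 genes leading in both libraries. Some of these are not reported here. Other genes were chosen after their values were seen. Alternatives varied the scaling, pseudocount, minimum count, depth, doublets, the gene floor and hepatobiliary step of the gate, and subsets of the cells. Promoter windows are from RefSeq on GRCm38.p6, read from a table that was matched by symbol for each of the 10 lowest genes.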

Additional observations from a re-analysis of the deposited data

How the results depend on the processing

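No paired analysis was possible because each genotype had 1 library, and for the same reason no replicate could be left out. The number of genes 2-fold higher in KO (109) was 61 under the median of ratios, 227 and 20 with pseudocounts of 1 and 50 CPM, 224 and 20 with minimums of 20 and 200 UMIs, 49 with thinned cells, 67 without the hepatobiliary step and 54 with the gate applied after thinning. The number lower (59) was 95 under the median of ratios, 18 with a pseudocount of 50 CPM, 22 with a minimum of 200 UMIs and 91 with the hepatobiliary step at under 2 UMIs. The Ptf1a log2 ratio of -2.92 was -6.06 and -1.21 with pseudocounts of 1 and 50 CPM, since KO was at 0. The share differences of -16.6 and -38.4 points were -25.3 with a floor of 1000 genes (of barcodes), -5.47 and -24.0 without the hepatobiliary step, and -29.4 (of epithelial cells) with the gate after thinning. No interval was computed for the values with that floor or without the hepatobiliary step. In cells with a Pdx1 UMI the log2 ratio turned for Ghrl (-0.083), Iapp (-0.49), Cck (-0.80), Slc38a5 (-1.48), Igfbpl1 (-0.37), Pax6 (-0.91), Isl1 (-0.95) and Runx1t1 (-0.59), of which Isl1 and Slc38a5 reached 50 UMIs there. Among alternatives chosen after seeing the data, it turned for Cdkn1a (-0.080) without hormone-bearing cells, for Col3a1 (-0.38) without mesenchyme-bearing cells, and for Col3a1 (-0.47), Pdgfra (-0.23), Iapp (-0.26) and Isl1 (-0.36) without both. The cause of these changes was not tested. Of the other values for single genes 1166 stayed within counting error and 292 moved beyond it with the same sign or near 0, and of the list medians 359 stayed and 15 moved. With 45 KO cells, a gene at 0 could have been at up to 5.12 CPM.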

Other observations

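The progenitor-gated cells without a Pdx1 UMI, 26 in each library, held different genes in WT and KO. In the 26 WT cells, at a median of 8380 UMIs, Nepn had a UMI in 17 cells, Cpa1 in 12, Mnx1 in 11, Ptf1a in 7 and Gcg in 6. In the 26 KO cells, at a median of 10018 UMIs, Onecut2 had a UMI in 23, Isl1 in 20, Gcg in 18, Nepn in 15, and Mnx1 and Ptf1a in 0. Isl1 was at 155.3 CPM in these WT cells and 556.8 in these KO cells, and Gcg at 27.2 and 1696 CPM, while Sox9 was at 423.3 and 474.2 CPM. A Sox9 UMI was present in 20 of these WT cells and 23 of these KO cells. Of the 14 KO cells with 10 or more hormone UMIs only 4 had a Pdx1 UMI, so the rest of them are among the 26 KO cells. Single cells held 313, 93 and 24 of the 472 Gcg UMIs of the 26 KO cells, so the Gcg level there is mostly that of few cells.

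Pairs of markers were also counted in the same cell. Of the 104 WT cells with a Pdx1 UMI 61 had an Nkx6-1 UMI and 17 a Gcg UMI, and of the 19 such KO cells 7 had each of these. Of the 29 KO cells with a Nepn UMI 17 had a Gcg UMI, against 21 of the 114 such WT cells. Depth differed little between the sets (median 12588 and 12931 UMIs per cell).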
